A study of Mus musculus with 8 samples.

Results

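The array probes described here are named by a genome position in place of a gene and are taken here as reading long noncoding transcripts of inguinal white adipose tissue (iWAT). The files name each by chromosome, first and last base and, for all but 13, a suffix F or R, read here as the forward and reverse strand. A probe was chosen when it lay on an autosome and carried the flag for signal well above background on 4 arrays or more, with no regard to group. This took 5545 of 15617 autosomal position-named probes (35.5%), of 55681 probes on the array. Another 577 position-named probes lie on chromosome X and were left out, and 0 lie on Y. The chosen probes fall in 2215 of 3390 regions (65.3%), a region being 1 pair of first and last base, and in 2723 of 4432 region and strand combinations (61.4%). Positions are in mouse build mm9 (NCBI37) as the files give them. No gene annotation or sequence of that build was used, so the gene, exon or intron at a region, and its sequence, were not analysed here, and that a transcript is noncoding was not checked.

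Long noncoding RNAs are transcripts without a long open reading frame, and many are capped, spliced and polyadenylated like messenger RNA. Some act on genes beside the place where they are made, others carry proteins to chromatin or hold them in the nucleus, and some are hosts from which microRNAs or small nucleolar RNAs are cut. As a class they are made at lower levels and in fewer tissues than messenger RNAs, and several take part in the choice between white and brown fat.

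The series compared 4 samples from control mice (Senp2flox/flox) with 4 from Senp2-aKO mice (Senp2flox/flox; Adipoq Cre), in which Cre under the adiponectin promoter deletes Senp2, the gene of a protease that takes SUMO off other proteins. Both groups carried the floxed alleles, began a diet with 58 kcal% fat at an age of 8 weeks and stayed on it for 12 weeks at 22 to 24 °C in a 12:12 h light and dark cycle. Cre is active in adipocytes, so other cells of the fat pad keep the gene. From each sample, 0.5 µg of total RNA was labelled with Cy3 and hybridised to an Agilent array with 1 colour. The labels do not say how many mice gave each sample, and the p-values measure the spread between these samples.

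Levels are the log2 processed signal relative to the 75th percentile of the array, so that a probe below 0 is dimmer than that percentile, and differences are Senp2-aKO minus control. Hybridisation differs between probes, so levels are compared only within a probe. The Senp2 probe was at 2.46, 2.46, 2.52 and 2.37 in controls and at 2.19, 2.12, 2.20 and 2.22 in Senp2-aKO samples (log2 fold change -0.27, SE 0.08, limma adjusted p = 0.0796), so all 4 Senp2-aKO samples lay below all controls while the probe did not pass the test; it did with a trended, robust variance (adjusted p = 0.0446). Whether it lies in the deleted part is not known here. All 8 arrays lay on 1 slide, controls in one row and Senp2-aKO samples in the other, so the effect of row and that of genotype cannot be told apart. That percentile was itself 419 ± 18.2 signal units (SD, n = 4) for controls and 349 ± 27.1 (SD, n = 4) for knockouts, with an exact permutation p of 0.0286, two-sided, the smallest that 8 arrays allow.

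General adipocyte genes such as Adipoq and Plin1 were all measured (10 of 10), averaging 7.46 ± 0.10 over the controls and 7.42 ± 0.20 over the knockouts (SD, n = 4 each), and 1 rose and 1 fell. Of 20 skeletal muscle markers 15 rose, with list means from -2.23 to 0.67 in controls and from 2.22 to 3.49 in Senp2-aKO samples, and of 10 brown and beige adipocyte markers 9 rose, with list means from -0.19 to 0.43 against 2.40 to 3.58. Of 7 listed epithelial markers 4 were measured and 2 rose (list means -3.02 to -2.66 against -2.44 to -1.19), of 5 adipose progenitor markers 2 rose (3.43 to 3.99 against 4.20 to 4.49), of 6 macrophage markers 5 were measured and 1 rose (2.36 to 3.08 against 2.73 to 3.17), and of 5 endothelial markers 0 passed by limma (1.23 to 1.55 in controls and up to 1.55 in Senp2-aKO samples). Of 8 B lymphocyte markers 6 were measured and 0 passed; Senp2-aKO 2 stood at 1.63 and the other Senp2-aKO samples between -3.35 and -3.06, with controls between -3.54 and -0.91. Of 8 T lymphocyte markers 7 were measured and 0 passed, with Senp2-aKO 2 at 2.73 and the other 7 samples between -0.97 and 0.47. In these last 3 lists 0 markers had an unadjusted p under 0.05 either. Senp2-aKO 2 also correlated least with its group over the position-named probes (0.947 to 0.951, against 0.970 to 0.976 among controls, across probes, which are not independent). In tissue RNA, fewer cells of a type and less RNA per cell cannot be told apart.

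Detection chose the probes and is given first as a description. Of the 15617 autosomal position-named probes, 7571 (48.5%) were above background on 0 arrays and 4221 (27.0%) on all 8, so most were either dark or lit throughout. Just inside the threshold, 287 probes were detected on 4 arrays, with a median level of -4.59; just outside, 335 were detected on 3 arrays, with a median of -4.73. Probes for the reverse strand were chosen in 36.9% of cases and those for the forward strand in 34.2%. By chromosome the share ran from 25.3% on chromosome 9 to 43.7% on chromosome 17. With the probes ordered by region length, from 62 bases to 7128487 bases, and split into 4 equal parts, the shares ran from 34.0% to 37.0%. Among the 3772 region and strand combinations with 2 or more probes, all probes were chosen in 516, none in 1315 and only some in 1941, so probes of 1 region were often split. Probes with a gene name were kept far more often, in 19291 of 27656 cases (69.8%).

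The share of all autosomal position-named probes above background on an array does not depend on the choice of probes. It was 35.3%, 38.1%, 37.5% and 37.5% in controls and 32.9%, 36.2%, 34.8% and 35.5% in Senp2-aKO samples. The means were 37.1% ± 1.23 and 34.9% ± 1.41 (SD, n = 4 per group), a difference that an exact permutation test did not separate (p = 0.0857, two-sided). Counting 1 probe per region and strand gave the same p, at 62.3% ± 1.32 and 59.6% ± 1.53. Of probes with a gene name, 70.2% ± 0.663 and 69.3% ± 1.15 were above background (exact permutation p = 0.229).

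Position-named transcripts changed in both directions between the groups, with the largest rise on chromosome 10 and the largest fall on chromosome 14. Of 5513 probes tested (32 had an outlier spot on some array and were left out), 252 (4.57%) rose and 143 (2.59%) fell in Senp2-aKO samples at a limma adjusted p under 0.05. Over all 30509 probes tested, 5.48% rose and 4.35% fell, so the position-named shares lay below the array's own in both directions. Rises filled 167 region and strand combinations and falls 96. Of the risen probes 109 differed at least 2-fold and 15 at least 4-fold, and of the fallen probes 61 and 11. The other 5118 did not pass. The median log2 fold change was 0.05, against 0.02 over all probes tested; under quantile normalisation it was -0.01.

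The filter favours a difference in a probe kept only because 1 group was bright. The counts are therefore given also for the 4194 tested probes above background on all 8 arrays. Of these, 204 (4.86%) rose and 105 (2.50%) fell, against 5.43% and 4.36% of all probes detected on all 8. Over all 5513 position-named probes tested, the groups did not overlap in 514 (9.32%) with Senp2-aKO above and in 310 (5.62%) with Senp2-aKO below. All tested probes of the array gave 11.9% and 11.2%. The spread of these 5513 probes within a group was wider than for other probes. Their median SD over the controls was 0.23 and over the Senp2-aKO samples 0.31, against 0.15 and 0.25 for the others. Without Senp2-aKO 2 the median SD of the position-named probes in that group was 0.25.

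Leaving out 1 array moved these counts by more than 1.5 times in 6 cases: 92 rose and 38 fell when control 1 was dropped, 144 and 54 for control 2, 112 and 54 for control 3, 138 and 97 for control 4, 162 and 86 for Senp2-aKO 1, and 128 and 89 for Senp2-aKO 4. Without Senp2-aKO 2 they were 267 and 191, and without Senp2-aKO 3 they were 268 and 157. In all 8 omissions 116 probes passed, 80 up and 36 down, in 79 region and strand combinations. The background filter was not redone in the omissions, so the choice of probes still rested on every array. With the mean of the skeletal muscle markers as a covariate 0 rose and 0 fell by limma at the adjusted threshold, as over all probes tested, and before adjustment, at a p under 0.05, 508 stood higher and 116 lower; the median SE was then 0.43, against 0.19, and the marker means did not overlap between the groups. The part of muscle RNA in single results was not tested. Under a background model of the raw signals (normexp, with an offset of 50 units), all 62 passing probes that are named kept their sign. Their differences were smaller, 42 of them by over 1.5 times, and 11 probes did not pass. The added offset alone makes differences of dim probes smaller, so the smaller size does not measure the effect of background. The normexp log2 fold change stands beside each passing position-named probe described singly that it moved so far or ended. For groups of neighbours so affected it is given as a range. Fold changes are given where all 8 arrays were above background. Elsewhere the log2 fold change rests partly on signals near background. For probes detected in 1 group only, "at least" marks a fold between group means. There, dimmer signals of the other group were raised to the array's lowest signal above background. Such a figure leaves out the spread between samples and is no confidence limit. The normexp difference beside it can be smaller.

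By chromosome, the share that rose ran from 1.93% of tested probes on chromosome 4 to 9.72% on chromosome 10, where 21 of 216 rose and 4 fell. The share that fell ran from 0.391% on chromosome 7, 1 of 256, to 5.91% on chromosome 9, 11 of 186. Chromosome 5 had more falls (22) than rises (19) among 394 tested probes. Of 2828 tested reverse strand probes 159 rose (5.62%) and 70 fell (2.48%), and of 2680 forward strand probes 93 rose (3.47%) and 68 fell (2.54%). These splits were not tested, since neighbouring probes may share a transcript.

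The largest rise lay on the forward strand of chr10:69679644-69682458, a region of 2815 bases. Its probe stood at -3.72, -2.97, -2.11 and -2.16 in controls and at 0.43, 1.30, 2.22 and -0.16 in Senp2-aKO samples. It rose 12.9-fold (95% interval 5.37 to 30.9; log2 fold change 3.69, SE 0.55, adjusted p = 0.00939), and the lowest Senp2-aKO sample lay above the highest control. The region chr10:69669025-69686275 on the same strand encloses it, and 5 of its 5 probes rose, by log2 fold changes from 3.50 to 3.61. Their mean was -3.41, -2.97, -2.34 and -2.28 in controls and 0.27, 1.14, 2.06 and -0.32 in Senp2-aKO samples. Controls 3 and 4 were highest among controls here and in the skeletal muscle list. The means of that list were -2.23, -2.22, 0.67 and -0.15 in controls and 2.22, 2.82, 3.49 and 3.14 in Senp2-aKO samples. Senp2-aKO 3 was the highest of its group in both, while Senp2-aKO 4 was lowest here and Senp2-aKO 1 in the muscle list. Deviations of the 5 probes from their group means correlated with those of the muscle list at 0.49 to 0.59. The part of muscle RNA was not tested. All 5 probes passed in each of the 8 omissions.

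Next came regions that were near background in controls. For the forward strand of chr3:137736327-137752677, above background in 1 of 4 controls, levels were -6.71, -6.63, -4.01 and -7.07 in controls and -3.48, -2.29, -1.34 and -3.03 in Senp2-aKO samples. This probe rose by a log2 fold change of 3.57 (SE 0.72, adjusted p = 0.0226; 1.09 under normexp), with control 3, the highest control of the muscle list, far above the other controls. It did not pass without control 1, 2 or 4 (adjusted p 0.0565 to 0.0695). The probe of chr3:137742666-137744470, inside that region and on the same strand, was also above background in control 3 alone, at -6.89, -7.10, -4.38 and -5.94 in controls and -3.56, -2.86, -1.25 and -3.14 in Senp2-aKO samples. It rose by a log2 fold change of 3.38 (SE 0.68, adjusted p = 0.0225; 1.09 under normexp) and did not pass without control 1, 2 or 4 (adjusted p 0.0520 to 0.0685); with the skeletal muscle mean as a covariate the log2 fold change was -0.07 (adjusted p = 0.984). The reverse strand probe of chr3:148884650-148888709, likewise above background in 1 control, was at -4.57, -6.06, -4.37 and -5.05 in controls and -1.71, -2.12, -1.50 and -2.86 in Senp2-aKO samples. It rose by a log2 fold change of 2.96 (SE 0.42, adjusted p = 0.00791; 1.14 under normexp) and passed in all 8 omissions. The probe of chr8:10886200-10905925, forward strand, was above background in 2 controls, at -4.26, -4.91, -5.20 and -4.80 in controls and -2.21, -2.04, -3.13 and -2.31 in Senp2-aKO samples. The groups were far apart, and the probe rose by a log2 fold change of 2.37 (SE 0.28, adjusted p = 0.00524; 0.95 under normexp).

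A rise with all 8 arrays above background was that of the only tested probe of chr13:21856097-21859200, reverse strand. It was at 2.37, 2.37, 1.85 and 1.79 in controls and 4.06, 4.81, 3.84 and 3.97 in Senp2-aKO samples. The groups lay well apart, and it rose 4.23-fold (95% interval 2.88 to 6.20; log2 fold change 2.08, SE 0.24, adjusted p = 0.00524), also in all 8 omissions.

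All 3 probes on the forward strand of chr14:115443612-115445950 rose. The probe with the highest mean was at -2.71, -2.88, -2.46 and -2.78 in controls and -1.31, -0.18, -0.58 and -1.14 in Senp2-aKO samples. It rose 3.74-fold (95% interval 2.54 to 5.52; log2 fold change 1.90, SE 0.24, adjusted p = 0.00633; 1.21 under normexp), and the controls lay close together while Senp2-aKO 2 was highest. All 3 passed in each omission. Mir17hg, the host transcript of the miR-17 to miR-92a microRNA cluster and also on chromosome 14, was measured by a gene-named probe at -2.59, -2.94, -2.49 and -2.50 in controls against -1.31, 0.01, -0.71 and -1.18 in Senp2-aKO samples, with Senp2-aKO 2 highest in both (log2 fold change 1.83, SE 0.28, adjusted p = 0.00985). Whether both read 1 transcript was not analysed here.

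The other large rises were above background in 0 of 4 controls and in 4 of 4 Senp2-aKO samples, so that the background filter admitted them through the latter alone. The reverse strand of chr9:40033002-40033539 was at -5.22, -7.05, -6.22 and -5.61 in controls and -3.30, -4.09, -4.42 and -3.98 in Senp2-aKO samples. Counted against the lowest signals that passed as above background, it was at least 1.89-fold higher (adjusted p = 0.0196; 0.56 under normexp), and it did not pass without control 3 (adjusted p = 0.0589). The reverse strand of chr8:27925064-27934895 was at -5.89, -5.25, -4.86 and -5.48 in controls and -2.62, -3.78, -3.71 and -3.03 in Senp2-aKO samples and was at least 2.96-fold higher (adjusted p = 0.00920; 0.72 under normexp). It passed in all 8 omissions, while the other tested probe of that region and strand differed by 0.39 and did not pass.

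The largest fall was smaller on the log2 scale than the largest rise, while 7.69% of fallen and 5.95% of risen probes differed at least 4-fold. The largest log2 fold change downward was on the forward strand of chr14:77258025-77278750, where 4 of 4 tested probes fell. The probe with the highest mean stood at -2.64, -3.13, -2.23 and -2.97 in controls and -6.53, -6.80, -4.69 and -4.42 in Senp2-aKO samples, and only 1 of the latter was above background. It was lower, by a log2 fold change of -2.87 (SE 0.55, adjusted p = 0.0199; -0.56 under normexp), and did not pass without control 1 or 3 (adjusted p 0.0596 to 0.0622). Senp2-aKO 1 and 2 lay far below Senp2-aKO 3 and 4. The mean of the 4 probes was -3.12, -3.64, -2.79 and -3.36 in controls and -5.78, -6.63, -5.35 and -4.80 in Senp2-aKO samples, again with Senp2-aKO 2 lowest. In the enclosed chr14:77261377-77274982, same strand, 1 of 2 tested probes fell, and the background filter admitted it through the controls alone. It was above background in all controls, at -3.69, -4.18, -3.46 and -4.06, and in 0 Senp2-aKO samples, and was at least 1.96-fold lower (adjusted p = 0.00147; -0.26 under normexp, where it did not pass with adjusted p = 0.0567).

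In chr1:52706748-52712402, the reverse strand was at -0.84, -0.57, -0.02 and -1.29 in controls and -3.20, -4.42, -2.59 and -2.10 in Senp2-aKO samples, above background on all 8 arrays. It was 5.27-fold lower (95% interval 2.43 to 11.4; log2 fold change -2.40, SE 0.49, adjusted p = 0.0229; -1.43 under normexp) and did not pass without control 1, 2 or 3 or Senp2-aKO 1 (adjusted p 0.0568 to 0.0654). On the reverse strand of chr3:30077338-30080281 the controls were tight at -1.10, -0.93, -0.95 and -1.29, while Senp2-aKO samples spread over -3.18, -4.48, -1.96 and -2.19. That probe was lower, by a log2 fold change of -1.88 (SE 0.50, adjusted p = 0.050; -0.88 under normexp); it did not pass without control 1, 2, 3 or 4 or Senp2-aKO 1 or 4 (adjusted p 0.0606 to 0.120), nor under quantile normalisation.

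The forward strand probe of chr9:96670035-96682896 was at -2.38, -3.35, -1.85 and -2.87 in controls and -4.90, -4.60, -4.08 and -4.14 in Senp2-aKO samples, with 2 of the latter above background. Controls 1 and 3 were the highest, and the probe was lower, by a log2 fold change of -1.82 (SE 0.33, adjusted p = 0.0167; -0.49 under normexp). It did not pass without control 1 (adjusted p = 0.0570).

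In chr5:22058025-22072475, forward strand, 4 of 5 probes fell. The probe with the highest mean was at -2.52, -2.02, -2.43 and -3.52 in controls and -4.36, -4.74, -4.06 and -4.52 in Senp2-aKO samples. It was lower, by a log2 fold change of -1.79 (SE 0.31, adjusted p = 0.0143; -0.42 under normexp, where it did not pass with adjusted p = 0.0546). A pair of its neighbours in the same region were above background in all controls and in 0 Senp2-aKO samples, so that the filter admitted the pair through the controls alone. One stood at -2.89, -2.60, -2.81 and -3.97 in controls and was at least 3.35-fold lower (adjusted p = 0.00857; -0.40 under normexp). The other stood at -2.83, -2.87, -2.94 and -3.79 and was at least 3.26-fold lower (adjusted p = 0.00501; -0.47 under normexp). Control 4 was lowest among controls in all 3, and all 3 passed in every omission.

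On chromosome 8, the forward strand probe of chr8:89996710-90049453 was above background on all 8 arrays, at -1.90, -2.32, -1.39 and -3.14 in controls and -3.95, -4.11, -3.55 and -4.28 in Senp2-aKO samples. It was 3.44-fold lower (95% interval 1.98 to 6.0; log2 fold change -1.78, SE 0.35, adjusted p = 0.0207; -0.54 under normexp, where it did not pass with adjusted p = 0.0562) and did not pass without control 1 or Senp2-aKO 1 or 4 (adjusted p 0.050 to 0.0666). On chromosome 10, the forward strand probe of chr10:76114741-76115073 was at -2.33, -2.83, -2.71 and -2.53 in controls and -4.98, -4.95, -3.39 and -3.93 in Senp2-aKO samples, with 2 of the latter above background. That probe was lower, by a log2 fold change of -1.71 (SE 0.36, adjusted p = 0.0244; -0.48 under normexp) and did not pass without control 1, 2, 3 or 4 or Senp2-aKO 1 (adjusted p 0.0526 to 0.0742). In both regions the other tested probes did not pass.

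A further pair of the 10 falls were above background in all controls and in 0 Senp2-aKO samples, so that the filter admitted them through the controls alone. The forward strand of chr17:84397891-84412748 was at -3.49, -3.77, -3.41 and -4.37 in controls and was at least 2.08-fold lower (adjusted p = 0.00677; -0.18 under normexp, where it did not pass with adjusted p = 0.192). For the forward strand of chr8:59994074-60002058, at -3.99, -4.32, -4.28 and -4.45 in controls, the fall was at least 1.47-fold (adjusted p = 0.00460; -0.13 under normexp, where it did not pass with adjusted p = 0.218). Both passed in all 8 omissions, and the other tested probe of each region did not pass.

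Detection on one side only was rare. Of the tested probes, 31 were above background in all controls and no Senp2-aKO sample, and 6 in all Senp2-aKO samples and no control. The rule admitted them through their bright group. Counted against the lowest signals above background, the first set was at least 1.05-fold to 3.35-fold lower, with 16 of 31 passing. The second was at least 1.54-fold to 2.96-fold higher, with 6 of 6 passing. The highest such figure upward was that of chr8:27925064-27934895, given above. The reverse strand of chr7:88131123-88136898 was at -3.60, -3.26, -3.49 and -3.12 there and at least 2.70-fold higher (adjusted p = 0.0188; 0.54 under normexp), and did not pass without Senp2-aKO 4 (adjusted p = 0.0511).

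When several probes of a region and strand passed, they moved in 1 direction. Among 782 region and strand combinations with 3 or more tested probes, the median range of the log2 fold change within the region was 0.36. The SD over all position-named probes was 0.49. A range over few probes and an SD over all are unlike measures, so the values do not show how alike probes of a region were. At least 1 probe passed in 263 combinations and 2 or more in 75; of the latter, 46 had rises, 29 had falls and 0 held both directions. Of 200 combinations with a passing probe and 2 or more tested probes, all of them passed in 39. In 40 combinations 3 or more probes passed, 27 upward and 13 downward. Probes of a region may share a transcript and are no replicates.

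The reverse strand of chr3:21964899-21974524 gave the third highest median of these, with 5 of 5 probes risen by 1.60 to 1.89. The mean of its probes was -2.65, -1.95, -2.78 and -2.30 in controls and -0.57, -0.36, -1.47 and -0.27 in Senp2-aKO samples, with Senp2-aKO 3 lowest of its group and still above every control. Without control 1, 4 of the 5 passed. Overlapping forward strand regions chr3:146645022-146646977 and chr3:146629425-146649125 had 3 of 3 and 4 of 4 probes risen. Over the longer one the mean was -1.55, -1.0, -1.02 and -0.89 in controls and -0.08, -0.18, 0.11 and 0.14 in Senp2-aKO samples, and its 4 probes differed among themselves by 0.04 in log2 fold change; 3 of them passed without control 3. The forward strand of chr3:146515333-146557069 also had 3 of 3 risen, at -2.04, -1.58, -1.83 and -1.84 in controls against -1.06, -0.89, -0.94 and -0.83 in Senp2-aKO samples.

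Among the falls, the forward strand of chr17:71183978-71185384 had 3 of 3 probes down, with means of -2.39, -2.74, -2.28 and -2.88 in controls and -3.86, -3.66, -3.37 and -3.87 in Senp2-aKO samples; 2 passed without control 1. On the reverse strand of chr8:119090566-119097735, 4 of 5 fell, and in the enclosed chr8:119092623-119094219 3 of 3, where the means were 1.03, 1.04, 0.85 and 0.93 in controls against 0.25, -0.21, 0.37 and 0.19 in Senp2-aKO samples. Without control 1 the numbers that passed were 1 and 2. Region chr17:12941161-12944859, named without a strand, had 5 of 5 probes down, the least by -0.75 on the log2 scale, with means of -1.51, -1.55, -1.34 and -1.75 in controls and -2.35, -2.25, -2.43 and -2.60 in Senp2-aKO samples; 2 of the 5 passed without control 1. Airn, the long noncoding transcript that silences Igf2r on the paternal chromosome and also a gene of chromosome 17, fell on its own probe from 0.89, 0.82, 0.99 and 0.61 to -0.01, -0.02, 0.08 and -0.07 (log2 fold change -0.83, SE 0.11, adjusted p = 0.00634). Whether the region lies in Airn was not analysed here.

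Some regions were split. In chr6:112552041-112560067, forward strand, 3 of 9 tested probes fell and the log2 fold changes ran from -2.85, for a probe above background in 0 Senp2-aKO samples, to -0.25. In chr16:89961600-89971725, reverse strand, 3 of 4 fell while the other was at -0.01. Of 9 forward strand probes in chr5:74487385-74497428, 4 rose, and the range was from 0.02 to 0.73. Of 7 reverse strand probes in chr2:158169020-158191295, 4 rose, between a lowest difference of 0.13 and a highest of 0.996. Without control 1 the numbers that passed were 1 on chromosome 6, 0 on chromosome 16 and 2 on chromosome 2, and without control 2 it was 0 on chromosome 5.

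Passing regions also overlapped or lay near each other. Chaining passing regions of a strand that lay within 50 kb gave 227 groups, of which 30 held 2 or more regions and 3 held both directions. Regions of a group may enclose one another. Groups over all tested regions were not counted, so these numbers do not show that changes cluster. The fullest rise lay on the reverse strand of chromosome 1 between bases 175653557 and 175717250, with 12 risen probes in 4 regions. In chr1:175654606-175672031 the mean of 5 probes was 1.55, 1.16, 1.63 and 1.52 in controls and 2.62, 2.79, 2.52 and 2.49 in Senp2-aKO samples, and in chr1:175660642-175671878 the mean of 3 was 0.70, 0.30, 0.56 and 0.38 in controls against 1.52, 1.95, 1.42 and 1.34 in Senp2-aKO samples. Senp2-aKO 2 was the highest in both, as in the B lymphocyte list. Every control lay below every Senp2-aKO sample, and the 5, 3 and 3 probes of the 3 overlapping regions passed in all 8 omissions, also without Senp2-aKO 2. In the fourth region, chr1:175705225-175717250, 1 of 5 tested probes rose.

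Chromosome 5 held the fullest group of falls: on the forward strand between bases 111538420 and 111652286, 9 probes fell in 4 regions. In chr5:111602486-111603075 the mean of 3 probes was -2.10, -1.84, -2.03 and -2.52 in controls and -2.87, -3.18, -2.92 and -3.33 in Senp2-aKO samples. In chr5:111538420-111540142 it was -1.43, -1.16, -1.49 and -1.46 in controls against -1.81, -2.03, -1.99 and -2.25 in Senp2-aKO samples. The falls were modest, from -1.22 to -0.55, and were not kept in every omission: of the 3 passing probes in each, 0 and 1 passed without control 1. Under normexp the log2 fold changes of the 9 probes ran from -0.49 to -0.04. The largest fall, of -1.22, was -0.26 there and did not pass (limma adjusted p = 0.0963). The falls of -0.75, -0.61 and -0.55 did not pass there either (limma adjusted p 0.0506 to 0.725). A group on chromosome 10 rose: on the forward strand between bases 66559716 and 66647841, 7 probes rose in 3 regions. The longest of these, chr10:66559716-66647841, encloses the others. In chr10:66640530-66644032 the mean was -3.56, -3.35, -3.45 and -4.17 in controls against -2.89, -2.12, -2.37 and -2.41 in Senp2-aKO samples, and in chr10:66627543-66629331 it was -2.03, -2.13, -1.92 and -2.70 in controls against -1.47, -0.81, -1.01 and -1.13 in Senp2-aKO samples, with control 4 lowest in both. Without control 1, 1 of 3 passed in each. Under normexp all 7 risen probes passed, with log2 fold changes from 0.48 to 0.97, where those reported ran from 1.02 to 1.44.

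Few regions changed on both strands. The array holds probes for both strands of 1042 regions; both were chosen in 508, 1 in 406 and neither in 128. Of 507 regions tested on both strands, 86 had a passing probe and 9 had one on each strand: 6 rose on both, 2 fell on both and 1 moved in opposite directions. Taking the probe with the highest mean on each strand, the Pearson correlation of the log2 fold changes was 0.09 over 507 regions, which share the arrays and the scaling. With 1 array left out, the 9 regions became 2, 5, 3 and 4 when that array was control 1, 2, 3 and 4, and 4 and 3 when it was Senp2-aKO 1 and 4.

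The opposite pair was chr9:82991830-82999937. Its forward strand stood at -0.93, -0.83, -0.78 and -1.08 in controls and -1.62, -3.69, -2.16 and -2.10 in Senp2-aKO samples and was 2.81-fold lower (95% interval 1.51 to 5.24; log2 fold change -1.49, SE 0.39, adjusted p = 0.0496; -0.85 under normexp). Its reverse strand was above background in 0 controls, at -3.69, -2.43, -3.67 and -3.79 in Senp2-aKO samples and at least 2.52-fold higher (adjusted p = 0.0297; 0.50 under normexp). The background filter admitted the reverse probe, the only 1 tested there, through the Senp2-aKO samples alone. Senp2-aKO 2 was the extreme sample on both strands. The fall did not pass without control 1, 2, 3 or 4 or Senp2-aKO 3 or 4 (adjusted p 0.0665 to 0.122), nor under quantile normalisation, and the rise did not pass without control 1, 2, 3 or 4 or Senp2-aKO 1 (adjusted p 0.0520 to 0.0793).

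The pair with the largest common rise was chr17:35080914-35090009. The forward strand was at -3.97, -4.35, -4.14 and -4.07 in controls and -2.69, -2.17, -2.25 and -2.52 in Senp2-aKO samples and rose 3.30-fold (95% interval 2.61 to 4.17; log2 fold change 1.72, SE 0.15, adjusted p = 0.00306; 0.82 under normexp). Its reverse strand, above background in 1 control, was at -4.54, -4.85, -4.44 and -4.95 in controls against -3.62, -2.55, -2.36 and -2.95 in Senp2-aKO samples and rose by a log2 fold change of 1.83 (SE 0.27, adjusted p = 0.00912; 0.71 under normexp). Both passed in all omissions, but each was the single risen probe of 4 tested on its strand, where the median log2 fold changes were 0.51 and 0.46.

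The forward strand of chr1:175654606-175672031, whose reverse strand is described above, had 3 of 4 tested probes risen, and the named one was at -3.37, -3.91, -3.50 and -3.98 in controls and -2.54, -2.40, -2.74 and -2.64 in Senp2-aKO samples and rose 2.16-fold (95% interval 1.67 to 2.79; log2 fold change 1.11, SE 0.16, adjusted p = 0.00871; 0.56 under normexp). In chr17:46972160-46997919, 1 of 7 tested forward probes and 1 of 6 tested reverse probes rose, and the median log2 fold changes were 0.38 and 0.42. The forward one rose from -4.23, -3.64, -4.13 and -3.63 to -2.91, -2.83, -3.03 and -2.92, 1.98-fold (95% interval 1.54 to 2.55; log2 fold change 0.98, SE 0.16, adjusted p = 0.0122; 0.47 under normexp). The reverse one rose from -0.71, -0.23, -1.09 and -0.39 to 0.03, 0.63, 0.28 and 0.17, 1.84-fold (95% interval 1.32 to 2.57; log2 fold change 0.88, SE 0.21, adjusted p = 0.0365), but did not pass without control 1, 3 or 4 or Senp2-aKO 1, 2, 3 or 4 (adjusted p 0.0549 to 0.101). In chr8:26343277-26352902, 1 of 5 forward and 2 of 5 reverse probes rose. The forward one went from -2.77, -2.42, -2.57 and -2.81 to -1.47, -0.97, -2.14 and -1.87 (1.03, SE 0.24, adjusted p = 0.0351). The named reverse one went from -2.63, -1.93, -2.72 and -3.06 to -1.39, -0.74, -1.97 and -1.55 (1.17, SE 0.30, adjusted p = 0.0475), with groups that overlapped. Under normexp the log2 fold change of that reverse probe was 0.77. Neither was firm: the forward probe did not pass without control 1, 2, 3 or 4 or Senp2-aKO 1 or 4 (adjusted p 0.0587 to 0.0979) and the reverse probe did not pass without control 1, 3 or 4 or Senp2-aKO 1, 2 or 4 (adjusted p 0.0634 to 0.119).

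In chr15:85412264-85549139 both strands held a passing fall, and neither passed under normexp. The forward probe was at -2.64, -2.99, -3.08 and -2.72 in controls and -3.52, -3.97, -4.02 and -3.58 in Senp2-aKO samples, 1.88-fold lower (95% interval 1.46 to 2.43; log2 fold change -0.91, SE 0.16, adjusted p = 0.0156; -0.26 under normexp, where it did not pass with adjusted p = 0.0829), and did not pass without control 1 (adjusted p = 0.0533). The reverse probe, above background in 4 controls and 0 Senp2-aKO samples, was at -4.17, -4.34, -4.46 and -4.05 in controls and at least 1.47-fold lower (adjusted p = 0.00531; -0.04 under normexp, where it did not pass with adjusted p = 0.741). The background filter admitted the reverse probe through the controls alone. The forward and the reverse probe were each the single fallen probe of 7 tested on its strand, where the median log2 fold changes were -0.02 and 0.06. On each strand, another passing region between the same bases held 1 risen probe, so this stretch held both directions.

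Probes with the narrowest intervals around 0 bound a change best, each for itself. On the forward strand of chr3:107608348-107636457 the levels were -0.09, -0.01, -0.10 and -0.06 in controls and -0.03, -0.02, -0.04 and 0.08 in Senp2-aKO samples. The log2 fold change was 0.06 (95% interval -0.13 to 0.26). For the forward strand of chr14:22267795-22319045, at 2.07, 2.05, 2.01 and 1.99 in controls against 2.14, 2.14, 2.01 and 2.10 in Senp2-aKO samples, it was 0.06 (-0.13 to 0.26). The reverse strand of chr3:100363012-100369462, at 1.76, 1.70, 1.74 and 1.73 in controls against 1.78, 1.87, 1.73 and 1.81 in Senp2-aKO samples, gave 0.06 (-0.13 to 0.25). These groups overlapped. The chromosome 14 probe does not stand for its region: over the 5 tested forward strand probes the log2 fold changes ran from -0.48 to 0.06, with a median of -0.45, and 0 passed (0 at an unadjusted p under 0.05). On the forward strand of chr11:95627874-95640824 the Senp2-aKO samples all lay below the controls, at -0.42, -0.49, -0.40 and -0.41 against -0.33, -0.32, -0.28 and -0.39, by -0.10 (-0.29 to 0.09), and the probe did not pass.

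Long noncoding RNAs that carry a gene name are background to these regions. Of 54 listed genes 30 were measured, 5 rose, 1 fell and 24 did not pass, while 5.48% of all probes tested rose and 4.35% fell; the median log2 fold change was 0.12 against 0.02. Snhg1 (0.85, SE 0.22, adjusted p = 0.0496) and Snhg3 (0.54, SE 0.13, adjusted p = 0.0370), hosts of small nucleolar RNAs, rose. Pvt1, a neighbour of Myc, rose by 0.64 (SE 0.15, adjusted p = 0.0326). Dancr, which restrains differentiation of progenitor cells, rose by 0.50 (SE 0.10, adjusted p = 0.0217). In these 4 every Senp2-aKO sample lay above every control, but none of the 4 passed in every omission: Snhg1 passed in 2 of 8 (adjusted p 0.0217 to 0.127) and missed the threshold under all 3 other scalings (0.0531 to 0.0570), Pvt1 in 3 (0.0326 to 0.0961), Snhg3 in 3 (0.0429 to 0.101) and Dancr in 4 (0.0253 to 0.0712). Leaving out control 1 ended all 4 calls. Mir17hg and Airn passed in all 8. Malat1, an abundant nuclear RNA, differed by -0.92 with overlapping groups (SE 0.27, adjusted p = 0.0689, and 0.0238 without control 4), and Neat1, the scaffold of paraspeckles, by -0.32 (SE 0.15, adjusted p = 0.208, and 0.0385 under quantile normalisation).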

How the data were processed

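The submitters' processing notes name Agilent Feature Extraction 11.5.1 as the program that quantified the images. The deposited processed, median and local background signals are intensity values with no scaling between arrays, and the deposited background and outlier flags (unit other) are 0 or 1 for each spot, per the file headers. A deposited matrix with 8 normalised columns was left out, because the column names match no label. Log2 processed signal was taken minus the 75th percentile of each array, spots of a probe were averaged without outlier spots, and probes well above background on at least 4 of 8 arrays (30509 tested) were fitted together with limma 3.58.1 (R 4.3.3, with data.table at version 1.17.8), with Benjamini-Hochberg adjustment over all of them. With 4 arrays per group, their number limits the precision. Single values were compared by an exact permutation test over 70 assignments.

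Probes named were the 10 largest rises and 10 largest falls among passing probes whose groups did not overlap, 1 per region and strand (of those, the probe with the highest mean, so a region may hold a larger difference); up to 6 regions passing on both strands; 4 narrow intervals; 4 probes detected in 1 group; 3 groups of neighbours within 50 kb; Senp2 and 6 named long noncoding RNA genes. Regions with 3 or more passing probes, Malat1 and Neat1 were named after their values were seen. The probes and lists were chosen with earlier results of these data known. The gene lists were named long noncoding RNA genes, skeletal muscle, brown and beige adipocyte, general adipocyte, B and T lymphocyte, macrophage, epithelium, endothelium and adipose progenitor. Gene names came from RefSeq (GRCm38.p6), matched by accession. The test was checked on simulated data. Alternatives were other scalings, a normexp background model with offset 50 on median signals, other filters, variance models, array weights, a replicate block, marker lists as covariates and leaving out each array.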

Additional observations from a re-analysis of the deposited data

Results flagged for a closer look

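In 20 of 168 groups of 4 samples that were examined (11.9%), 1 sample stood far from the other 3 relative to the range of the group. Chance gives about 1 in 20 for independent, normal values. Many groups here are probes of neighbouring or overlapping regions on the same arrays, so the share cannot be set directly against that rate. Names are the array's probe names, and values are log2 levels relative to the 75th percentile of the array unless said otherwise. On the reverse strand of chromosome 1, control 2 was low at -0.10 for A_30_P01018941 (other controls 0.30 to 0.35) and at 1.97 for A_30_P01021447 (2.38). On the forward strand of chromosome 10, control 4 was low at -5.93 for A_30_P01021486, at -1.43 for A_30_P01023797 and at -4.86 for A_30_P01033049 (other controls -4.48 to -4.27, -0.58 to -0.54 and -4.17 to -4.07). There, Senp2-aKO 1 was low at -2.94 for A_30_P01023693 (others -2.20 to -2.12).

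On the forward strand of chromosome 5, control 2 was high at -0.16 for A_30_P01024284, at -1.23 for A_30_P01028152 and at -1.92 for A_30_P01029269 (other controls -0.38 to -0.35, -1.61 to -1.59 and -2.34 to -2.28). Senp2-aKO 4 was low at -2.05 for A_30_P01021193 (others -1.54 to -1.49), and control 4 was low at -3.79 for A_30_P01029517 (others -2.94 to -2.83). Senp2-aKO 2 was high at -2.43 for the reverse strand probe A_30_P01030877 on chromosome 9 (others -3.79 to -3.67) and low at -0.49 for A_30_P01029377 on chromosome 11 (others -0.42 to -0.40). On chromosome 3, control 3 was high at -4.01 for A_30_P01032042 (other controls -7.07 to -6.63), and Senp2-aKO 4 was high at 0.0772 for A_30_P01032404 (others -0.04 to -0.02).

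Among genes and lists, control 3 was high for Pvt1 at -1.14 (other controls -1.52 to -1.48) and Senp2-aKO 4 was high for Snhg3 at 3.72 (others 3.41 to 3.45). The B lymphocyte list stood at 1.63 in Senp2-aKO 2 (others -3.35 to -3.06) and the epithelial list at -2.43 in Senp2-aKO 4 (others -1.37 to -1.20). For the 75th percentile of signal, control 3 stood at 446 and the other controls at 408 to 411.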

How the results depend on the processing

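Each group has 4 arrays on 1 slide, many probes lie near background, and probes of a region may share a transcript, so counts of probes may overstate the number of separate transcripts. With the scalings tried, 221 to 270 probes rose and 153 to 179 fell, within 1.5 times of the 252 and 143 reported; the share of rises among calls was 63.8% and was 55.3% under quantile normalisation. With the normexp background model 533 rose and 111 fell (82.8% rises), 21 regions passed on both strands and the median log2 fold change was 0.14. The median ratio of the named differences to those reported was 0.494, and the offset of 50 alone makes differences of dim probes smaller. Without a filter on background, where 15520 position-named probes were tested, 144 rose, 80 fell, 3 regions passed on both strands and the median was 0.21. With array weights 235 fell and 17 regions passed on both strands. With the B lymphocyte list as a covariate 17 regions passed on both strands. With the skeletal muscle list as a covariate 0 rose and 0 fell, 0 regions passed on both strands and the median was 0.18. Detection on all 8 arrays, outlier spots kept and a trended, robust variance gave 240 to 262 rises and 122 to 154 falls. The cause was not tested for any of these.

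With 1 array left out, rises ranged from 92 to 268, falls from 38 to 191, regions passing on both strands from 2 to 11, the median from 0.03 to 0.08, and the difference in detected share from -2.83 to -1.59 percentage points. Deviations of same-numbered samples from their group means correlated at 0.04, -0.04, 0.12 and 0.11. Weak correlations do not exclude a pairing, and the labels do not say whether there was one. With the replicate number as a block 182 rose, 70 fell and 6 regions passed on both strands. 1 named difference changed its sign, that of A_30_P01024709 on chromosome 3, at -0.0732 with the skeletal muscle list as a covariate; no other, of a position-named probe or a gene, did so in any alternative run. Of the passing probes named, 33 of 62 passed in all 8 omissions, 22 did not pass without a filter on background, 11 with normexp and 11 with the replicate block. With the replicate block, Snhg1, Snhg3, Pvt1 and Dancr did not pass (adjusted p 0.0613 to 0.0867), and with the normexp background model Malat1 (0.0403) and Senp2 (0.0185) did.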
